A study of Homo sapiens with 6 samples.

Results

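The genes described here encode the proteins of the mitochondrial ribosome. They were taken as every symbol of the deposited table that consists of MRPL or MRPS, a number and at most a closing letter A, B or C. This gave 78 of 13271 genes, 49 with the prefix MRPL (large subunit) and 29 with the prefix MRPS (small subunit). Their RNA was measured in 5637, a human bladder cancer cell line, 48 h after transfection with an empty vector (control, 3 libraries) or with a plasmid that carries MAT1A (3 libraries). All 6 libraries came from the same parental line grown in the same medium and were transfected with the same lipid reagent, so the control cells carry a plasmid too. MAT1A encodes the liver form of methionine adenosyltransferase, the enzyme that makes S-adenosylmethionine. No label ties the replicates to cultures of their own, and the p-values below therefore speak of the spread among 6 libraries, which could be technical.

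Mitochondria keep a ribosome of their own, which makes the handful of respiratory chain subunits encoded by mitochondrial DNA. Its ribosomal RNAs come from mitochondrial DNA, whereas all its proteins are encoded in the nucleus, made in the cytosol and imported. The small subunit binds the messenger RNA and decodes it, and the large subunit forms the peptide bond and is anchored at the inner membrane. Some of its proteins descend from those of bacterial ribosomes, and others are found only in mitochondria.

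Library depth was even, between 17.39 and 21.57 M reads. Values are reads on a CPM-like scale, with the columns already balanced against each other. What set this scale was not tested. MAT1A lay between 0.253 and 4.54 in the control libraries and between 1805 and 1917 in the MAT1A libraries. All 9 epithelial markers were in the table. Their summed value lay between 11700 and 11990 in control and between 12540 and 13790 in MAT1A libraries. Of these, 6 were called higher and 0 lower (limma adjusted p under 0.05), against 4.01% and 7.40% of all genes tested. Of 8 skeletal muscle markers all were in the table and all were called lower, against 7.40% of all genes tested. Their sums were 374, 116 and 61.8 in control libraries 1, 2 and 3. In MAT1A libraries 1, 2 and 3 they were 61.3, 28.4 and 23.7. Of 6 fibroblast markers 3 were in the table (PDGFRB, DCN and LUM were not), and 1 was called lower. Their sums were 142.5 to 259 in control and 121 to 128 in MAT1A libraries. None of the 4 leukocyte markers and 1 of the 3 endothelial markers was in the table. Control library 1 therefore had the highest muscle and fibroblast signal, and the part of this signal in the results on mitochondrial ribosomal proteins was not tested.

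Most mitochondrial ribosomal protein genes had slightly higher values in the MAT1A libraries, and the large and small subunit did so by much the same amount. The log2 change (MAT1A less control, taken on log2 of value + 1) was above 0 for 70 of the 78 genes (89.7%), against 51.5% of all 12866 genes tested. Its median was 0.080, with the central 50% of members between 0.040 and 0.12, against a median of 0.004 over all genes tested. All 78 members passed the filter on low values. Single genes mostly did not pass the test: 7 members rose and 0 fell (limma, Benjamini-Hochberg adjusted p under 0.05), which is 8.97% of the members against a background of 4.01% of all genes called higher, while 7.40% of all genes were called lower. At an unadjusted p under 0.05, which 26.2% of all genes passed in either direction, 30 members were higher and 1 lower, against 1541 genes higher and 1832 lower of all 12866. With the replicate number as a block, which uses the pairing of control and MAT1A libraries of the same number, 15 members were called higher (19.2%, background 7.57%) and 0 lower (background 10.4%). These were the 7 and MRPL3, MRPL16, MRPL23, MRPL28, MRPL34, MRPL37, MRPL52 and MRPS33. The 3 MAT1A libraries all lay above the 3 control libraries for 22 members (28.2%, against 14.7% of all genes) and all below for 1 (against 15.6%).

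Set side by side, the subunits differed little. Of the 49 large subunit genes 3 rose and 44 lay above 0, with a median log2 change of 0.075 and a range from -0.058 to 0.20. Of the 29 small subunit genes 4 rose and 26 lay above 0, with a median of 0.085 and a range from -0.27 to 0.19. The shares called higher were 6.12% in the large and 13.8% in the small subunit, against 4.01% of all genes, and rest on few calls. The summed value of the large subunit genes was 3029, 3110 and 3060 in control libraries 1, 2 and 3 and 3190, 3332 and 3207 in MAT1A libraries 1, 2 and 3, so that the groups did not overlap and the mean was 5.75% higher. For the small subunit the sums were 1529, 1575 and 1564 in control and 1635, 1687 and 1626 in MAT1A libraries, again with no overlap and a mean 6.02% higher. The sum over all genes tested was itself 1.03% higher in the MAT1A libraries. The ratio of the large to the small subunit sum stood at 1.971 ± 0.0125 in control and 1.966 ± 0.014 in MAT1A libraries (SD, n = 3 each), a difference smaller than the spread between replicates. A bulk sum does not tell more RNA per cell from more cells with a high level.

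**Figure D1:**
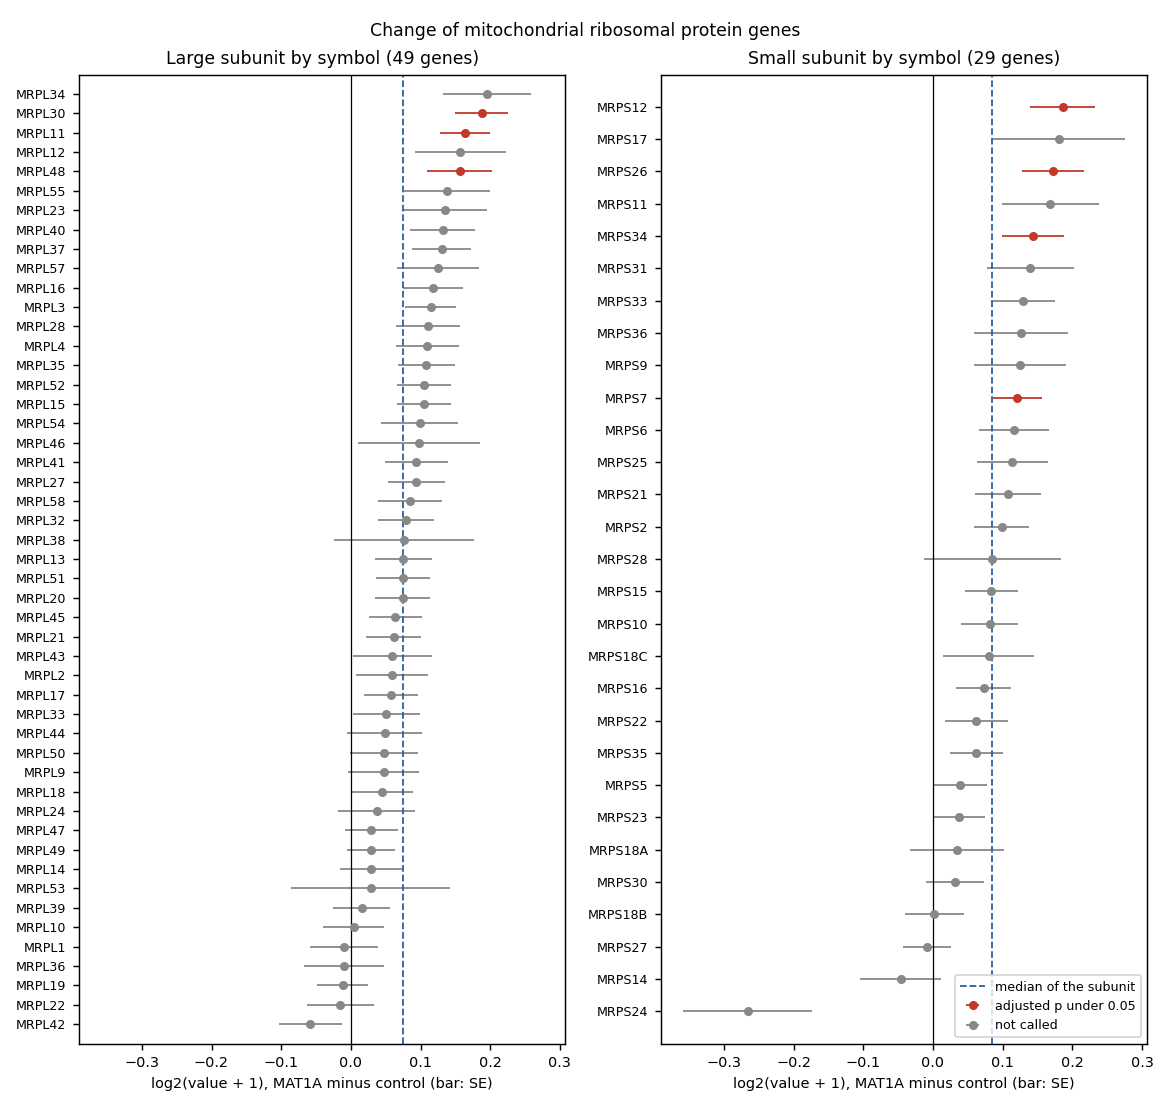
Log2 change of each of the 78 genes (x axis, MAT1A less control, log2 of value + 1, bars are standard errors), large subunit at left and small subunit at right, red where the gene was called higher. Most points lie right of 0, the dashed medians are 0.075 and 0.085, and MRPS24 stands lowest at -0.27.

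The upward shift was carried by every MAT1A library, but not equally. Relative to each gene's own mean over the 6 libraries, the median large subunit gene stood at -0.053, -0.024 and -0.043 in control libraries 1, 2 and 3 and at 0.016, 0.082 and 0.014 in MAT1A libraries 1, 2 and 3 (log2). The median small subunit gene stood at -0.054, -0.022 and -0.039 and then at 0.018, 0.079 and 0.025, so that control library 1 was lowest and MAT1A library 2 highest in both subunits. MAT1A library 2 held the highest value of the 6 for 46 of the 78 members, and control library 1 the lowest for 33. Without control library 1, the library with the highest muscle signal, 1 member was called higher (MRPL30), and the medians were 0.059 for the large and 0.078 for the small subunit. The number called higher was 3 without control library 3, 2 without MAT1A library 1, 4 without MAT1A library 2, 11 without MAT1A library 3 and 6 without control library 2. In each of these 6 fits 0 members were called lower.

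**Figure D2:**
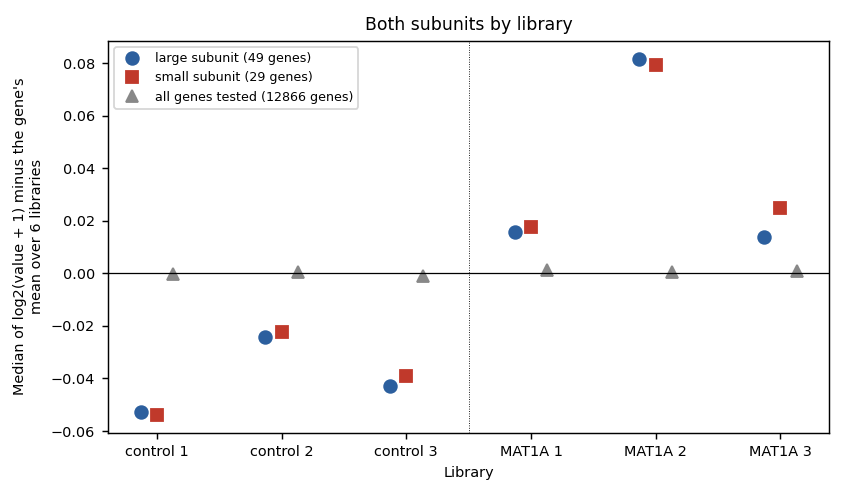
Median over genes of the log2(value + 1) minus the gene's mean over 6 libraries (y axis), for each library (x axis), for the large subunit, the small subunit and all genes tested. Both subunits lie below 0 in the 3 control libraries and above 0 in the 3 MAT1A libraries, highest in MAT1A 2 (0.082 and 0.079), while the median of all genes stays near 0.

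Among the large subunit genes, MRPL30, MRPL11 and MRPL48 rose. MRPL30 encodes the counterpart of bacterial protein L30 and lies on chromosome 2 at 99181079 to 99197626 (GRCh38). It read 63.0, 61.2 and 61.0 in control libraries 1, 2 and 3 and 71.5, 69.8 and 70.0 in MAT1A libraries 1, 2 and 3. The groups were clearly apart, each with a narrow spread, at 61.7 ± 1.07 and 70.4 ± 0.893 (SD, n = 3), a mean 14.1% higher (log2 change 0.19 ± 0.04, SE; limma adjusted p = 0.0039). MRPL30 was the only member called in each of the 6 fits that left out 1 library. It shares 564 and 380 bases of exon with 2 annotated genes on the same strand that have no row in the table.

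MRPL11 encodes a protein at the base of the stalk that receives translation factors, and is one of the most abundant members. It stood at 156, 165 and 162 in control and at 175, 188 and 179 in MAT1A libraries. All MAT1A values were above all control values (log2 change 0.16 ± 0.04, SE; limma adjusted p = 0.00645), and without control library 1 the adjusted p was 0.0512. MRPL48, a protein without a bacterial counterpart, was 38.2, 36.7 and 38.4 in control and 40.7, 42.2 and 43.6 in MAT1A libraries. The groups were apart but close (log2 change 0.16 ± 0.05, SE; limma adjusted p = 0.0417), and the call was lost when any 1 of the 6 libraries was left out (adjusted p up to 0.135).

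Among the small subunit genes, MRPS12, MRPS26, MRPS7 and MRPS34 rose. MRPS12 encodes a protein of the decoding centre, whose bacterial counterpart is altered in streptomycin resistance. It stood at 58.0, 58.4 and 57.6 in control libraries, a very even level, and at 69.5, 67.8 and 61.2 in MAT1A libraries, where library 3 was lowest (log2 change 0.19 ± 0.05, SE; limma adjusted p = 0.0159). MRPS7, which binds the ribosomal RNA early in assembly of the small subunit head, went from 104 ± 2.53 to 113 ± 1.79 (SD, n = 3; log2 change 0.12, limma adjusted p = 0.0328) with no overlap.

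MRPS26 and MRPS34 encode proteins found only in mitochondrial ribosomes. MRPS26 was 60.15, 58.7 and 62.2 in control and 70.9, 69.5 and 64.1 in MAT1A libraries, with no overlap (log2 change 0.17 ± 0.04, SE; limma adjusted p = 0.0193). MRPS34 was 82.3, 82.1 and 87.2 in control and 97.0, 94.6 and 86.9 in MAT1A libraries, so that MAT1A library 3 lay just under control library 3 (log2 change 0.14, limma adjusted p = 0.0447). In MRPS12, MRPS26 and MRPS34 alike, MAT1A library 3 was the lowest of its group. Each of the 4 small subunit calls was lost without control library 1 and without MAT1A library 1. MRPS12 also lost its call without control library 3 (adjusted p up to 0.092), MRPS26 without control library 2 (up to 0.0997), MRPS7 without control library 3 or MAT1A library 2 (up to 0.143), and MRPS34 without any library but MAT1A library 3 (up to 0.185).

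**Figure D3:**
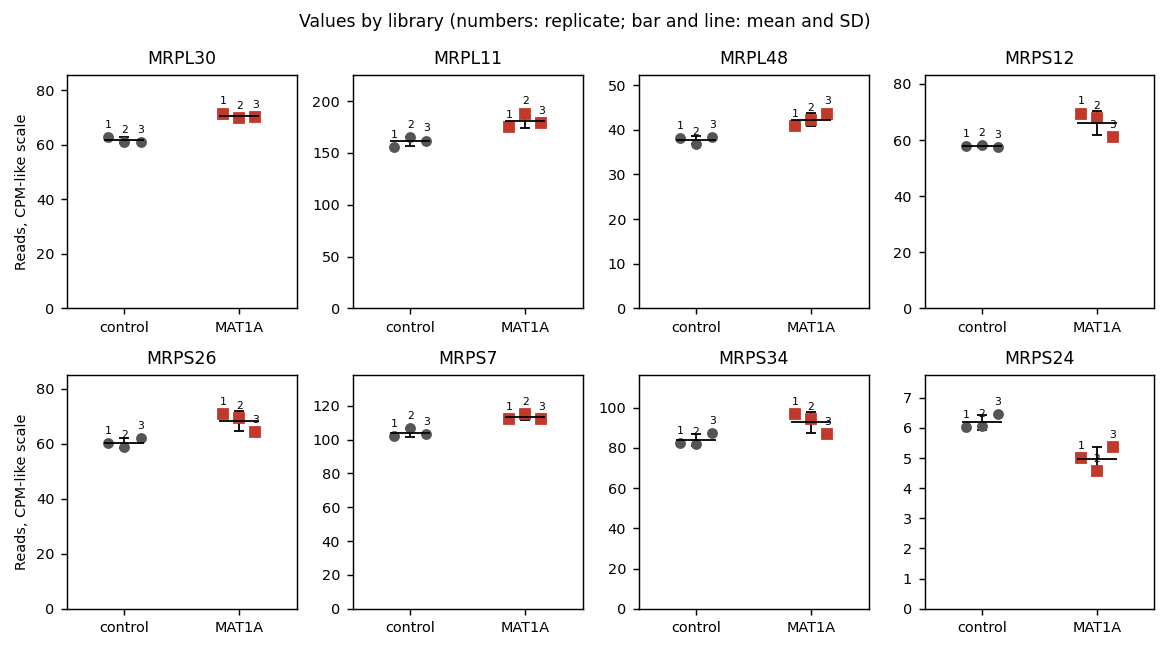
Reads on the deposited scale (y axes from 0) for the 7 members called higher and for MRPS24, drawn as circles (control) and squares (MAT1A) that carry the replicate number, with the mean ± SD of 3 libraries. The shifts are small beside the levels, as in MRPL30 (61.7 to 70.4), and MAT1A 3 is the lowest of its group in MRPS12, MRPS26 and MRPS34.

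MRPS24 had the lowest log2 change of the 78 members, 8 of which lay below 0. It encodes the mitochondrial counterpart of bacterial protein S3, which lines the messenger RNA entry of the small subunit. It read 6.03, 6.06 and 6.47 in control and 5.01, 4.57 and 5.36 in MAT1A libraries, at means of 6.19 ± 0.244 and 4.98 ± 0.394 (SD, n = 3). It is the 1 member whose MAT1A values were all below its control values, 19.4% lower in the mean, yet it did not pass the test (log2 change -0.27 ± 0.09, SE; limma adjusted p = 0.0754; 0.0552 with the replicate block). It was called lower in a single fit, that with the replicate block and without the trend on length and GC (adjusted p = 0.0321). A read-through gene, URGCP-MRPS24, shares 606 bases of exon with it on the same strand and has no row in the table.

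In the large subunit the highest change belonged to MRPL34, a short basic protein with a bacterial counterpart, and the lowest to MRPL42, a protein without one. MRPL34 was 27.4, 29.9 and 27.9 in control and 32.7, 35.7 and 29.8 in MAT1A libraries. MAT1A library 3 overlapped the control range and the gene was not called (log2 change 0.20, limma adjusted p = 0.0549), whereas it was with the replicate block (0.0119), with the filter at 5 (0.0496) and without the trend on length and GC (0.0286). MRPL42 was 87.3, 80.2 and 89.3 in control and 84.5, 78.1 and 83.8 in MAT1A libraries, with overlapping groups (log2 change -0.058, limma adjusted p = 0.447); the change itself was 0.00458 once each library's trend on length and GC was taken out. MRPL3, which reaches to the site of peptide bond formation, stood at 172 ± 6.26 and 186 ± 6.22 (SD, n = 3) with no overlap and just missed the threshold (log2 change 0.11, limma adjusted p = 0.0507), which it passed with the replicate block (0.00712), with the filter at 5 (0.0468) and without the trend on length and GC (0.00586).

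The symbol does not always give the place of the protein. MRPS18A, MRPS18B and MRPS18C are 3 paralogs that descend from bacterial protein S18. MRPS18B and MRPS18C sit in the small subunit, while MRPS18A sits in the large one. Their values were not alike: MRPS18B had 57.1 ± 0.337 in control and 57.2 ± 2.32 in MAT1A libraries, MRPS18C 16.9 ± 0.0892 and 17.9 ± 1.14, and MRPS18A 14.1 ± 0.367 and 14.5 ± 0.684 (SD, n = 3). None of the 3 was called (limma adjusted p = 0.983, 0.471 and 0.796), and the MRPS18B change, 0.002, was negative under 5 of the alternative settings. MRPS30, also found in the large subunit, stood at 62.5 ± 2.49 and 63.9 ± 0.996. MRPS36 is now known as a component of the oxoglutarate dehydrogenase complex and not of the ribosome, and stood at 22.1 ± 2.01 and 24.2 ± 1.05 (SD, n = 3; neither called). MRPS36 was called higher in 1 fit, that with the replicate block and without the trend on length and GC (limma adjusted p = 0.0412). Counted by place in the structure, the large subunit had 51 genes with 3 called higher (5.88%) and a median log2 change of 0.075. The small subunit had 26 genes with 4 called higher (15.4%) and a median of 0.092, against 4.01% of all genes called higher.

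Grouped by descent, 47 members have a bacterial counterpart and 28 do not, while 3 were left unclassed (MRPL55, MRPL58 and MRPS36). Of the former 4 rose (MRPL30, MRPL11, MRPS12 and MRPS7) with a median log2 change of 0.080, and of the latter 3 rose (MRPL48, MRPS26 and MRPS34) with a median of 0.076. The shares called higher were 8.51% and 10.7%, against 4.01% of all genes. In the large subunit the medians were 0.075 over 29 genes with a counterpart and 0.076 over 18 without, and in the small subunit 0.084 over 18 and 0.088 over 10. The changes were thus spread over both classes.

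RNA levels differed widely among genes whose proteins the ribosome holds together. Compared per kilobase of annotated exon, the large subunit ran from 1.00 to 96.3 in the control libraries and the small subunit from 2.37 to 76.5, with medians of 23.3 and 14.5. MRPL51 was highest in the large subunit (96.3 ± 4.07 per kilobase, SD, n = 3), then MRPL11 (63.5 ± 1.85) and MRPL3 (63.3 ± 2.30), which did not differ from each other beyond their spread. Lowest were MRPL53 (2.79 ± 0.442), MRPL46 (1.11 ± 0.0946) and MRPL38 (1.00 ± 0.0515). In the small subunit MRPS34 led (76.5 ± 2.63), then MRPS26 (53.6 ± 1.55) and MRPS15 (50.9 ± 2.22), the latter pair within their spread. MRPS28 (3.22 ± 0.266), MRPS11 (3.17 ± 0.240) and MRPS24 (2.37 ± 0.0933) were lowest, MRPS28 and MRPS11 again within their spread. This order rests on the length used. With the median transcript length in place of all annotated exons, the subunit medians were 54.5 and 40.0, MRPL42 moved from rank 46 to rank 11 of 49, and MRPS27 from rank 13 to rank 1 of 29. MRPL51 led the large subunit, and MRPL38, MRPL46 and MRPL53 were its last 3, by both lengths.

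Several members, low ones among them, share part of their annotated exons with another gene, where position alone does not assign a read to 1 gene. The effect of this on the levels was not tested. Exon bases are shared with another annotated gene by 41 members, 29 of them with a gene on the other strand, and the library kit does not mark strand. Among the low members, MRPL38 shares 1373 bases with a read-through gene on its own strand, MRPL46 shares 724, and MRPL53 shares 608 with CCDC142. Among the high ones, MRPL51 shares 486 bases with NCAPD2 on the other strand. Named pseudogenes exist for 34 members, most of all for MRPS21 (8), MRPS36 (5) and MRPL57 (5).

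The members lie on 21 chromosomes. Starts were taken as the outer ends of the annotated genes. By these, 26 members start within 1000 bases of a gene of the table on the other strand, head to head. For MRPL11 that end is 66466738, near PELI3, whereas the RefSeq start used for its promoter lies next to 66438849. Its pairing with PELI3 thus rests on the annotation used, and MRPL11 is kept in the counts and medians here. One head-to-head pair joins the subunits: MRPL46 and MRPS11 on chromosome 15 start 34 bases apart. MRPL46 stood at 7.12 ± 0.608 in control and 7.67 ± 0.242 in MAT1A libraries and MRPS11 at 17.8 ± 1.35 and 20.2 ± 1.32 (SD, n = 3), with log2 changes of 0.098 and 0.17, neither called (limma adjusted p = 0.515 and 0.135). The other 24 partners are not mitochondrial ribosomal protein genes. Of the 23 that were tested, 2 rose and 0 fell, against 4.01% of all genes called higher and 7.40% called lower. Their median log2 change was 0.022, against 0.077 for the 26 members. The risers were TCP1, a subunit of the cytosolic chaperonin, beside MRPL18 (0.12 against 0.045 for MRPL18), and FAU, which encodes a cytosolic ribosomal protein, beside MRPL49 (0.15 against 0.029). MRPL49 and FAU share 282 bases of exon. No called member had a called partner, but the calls are too few to read this as a result. MITD1, the neighbour of MRPL30, had a log2 change of -0.049 and EME2, the neighbour of MRPS34, one of 0.10. SARS2, the mitochondrial seryl-tRNA synthetase gene that shares its start region and 349 bases of exon with MRPS12, was listed at only 1.48 in control and 1.90 in MAT1A libraries (log2 change 0.22, adjusted p = 0.248).

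Promoter sequence was available from RefSeq (GRCh38.p14) for 69 of the 78 members, as 250 bases before to 50 after the annotated start, counted with the first transcribed base as 1 and the base before it as -1. Windows were searched on both strands for letters bound by factors known to act on genes of mitochondrial proteins: GCGCA and GCGC with any 1 base between them for NRF1, CCGGAAGT for the ETS family to which GABPA belongs, and ATGGCGGC for YY1, with TATAAA beside them. No hits of different motifs overlapped. The YY1 letters were in 19 of the 69 windows (27.5%), 10 of 42 in the large and 9 of 27 in the small subunit, against 6.31% of the 10043 windows of tested genes and 3.21% of all 27305 windows of the same length. The NRF1 letters were in 8 (11.6%, against 11.8% of tested genes), the ETS letters in 11 (15.9%, against 9.0%) and TATAAA in 2 (2.9%, against 5.7%). Of 20 YY1 matches, 17 lay after the start and on the strand of the gene, the last of them at position 39. Of the 634 windows of tested genes with these letters, 67.2% had them after the start. The letters begin with ATG, so a match there can also be the beginning of the coding sequence. Matches in coding sequence were not told apart from others, and the cause of the higher share in the members was not tested. These short windows are shown for the members of each subunit with the highest control values among those that hold the YY1 letters, which are in capitals, 5′ to 3′ on the strand of the gene. On the other strand the same letters read GCCGCCAT.
MRPL19, chr2:75646718-75646747, plus strand: gtcccatagcaGCCGCCATatggtggcaga
MRPL47, chr3:179604805-179604834, minus strand: acaaactcatgGCCGCCATggctactacgg
MRPL9, chr1:151763461-151763490, minus strand: tgcctgtgaacATGGCGGCgcccgttgtca
MRPL58, chr17:75012676-75012705, plus strand: aagacctgagcATGGCGGCcaccaggtgcc
MRPS15, chr1:36464339-36464368, minus strand: cctgggccagcATGGCGGCgcccatgtaac
MRPS35, chr12:27710833-27710862, plus strand: tcctcgcagccATGGCGGCcgccgcgctcc
MRPS30, chr5:44808952-44808981, plus strand: cgcgggcaaagATGGCGGCggccaggtgtt
MRPS10, chr6:42217831-42217860, minus strand: ggaccggcaagATGGCGGCgcggacagcgt

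None of the 7 members called higher held the YY1 letters. The 19 members with them had a median log2 change of 0.034 and the 50 without them one of 0.10, and MRPS24, the lowest member, has them. For the other motifs the medians were 0.094 with and 0.080 without the NRF1 letters, and 0.077 with and 0.080 without the ETS letters. These are descriptions of letters in a window and show no binding. Further called members are shown for contrast: MRPL30 with the NRF1 letters, MRPS34 with the ETS letters (both read from the other strand and in capitals), and MRPL11, whose window holds none of the motifs and of which the 100 bases before the start are printed.
MRPL30, chr2:99181058-99181087, plus strand: tgatacccagGCGCCTGCGCtctctttcta
MRPS34, chr16:1773136-1773165, minus strand: ctcttccggtgACTTCCGGccggaccgctg
MRPL11, chr11:66438849-66438948, minus strand: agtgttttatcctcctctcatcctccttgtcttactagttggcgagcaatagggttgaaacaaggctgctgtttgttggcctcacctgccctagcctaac

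MAT1A library 3 differed from the other MAT1A libraries along the GC content of the members. The 78 genes span 35.0% to 71.9% GC over their annotated transcripts, with a median of 49.2% against 48.9% for all genes tested, and their median exon length of 2539 bases compares with 5106. Across the 78 genes, the difference between MAT1A library 3 and the mean of MAT1A libraries 1 and 2 had a Pearson r of -0.553 with GC content (Spearman rho -0.559). Across 12807 tested genes r was -0.333. These are correlations across genes, which share their libraries and are not independent replicates. Among the 26 members with the highest GC content, MAT1A library 3 was the lowest of its group for 17, as in MRPS12, MRPS26 and MRPS34, and the highest for 3. Among the 26 with the lowest GC content it was the lowest for 6 and the highest for 11. Across the members the change between MAT1A and control itself had a Pearson r of 0.221 with GC content and of -0.139 with log exon length. Across the 12807 tested genes these were 0.115 and -0.036. Spearman rho was 0.241 and -0.065 across the members, and 0.228 and -0.119 across the tested genes. With each library's trend on length and GC removed, 15 members were called higher (19.2%, against 5.95% of all genes), the 7 named above among them, and the medians were 0.069 for the large and 0.094 for the small subunit.

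**Figure D4:**
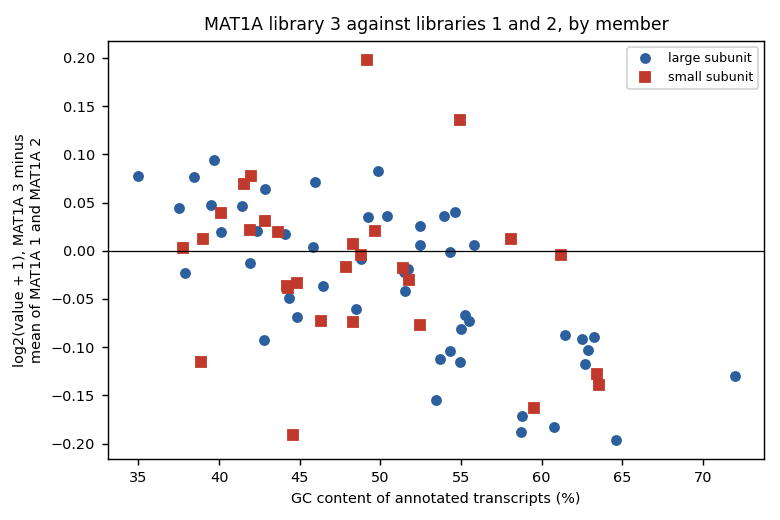
Difference on the log2(value + 1) scale between MAT1A library 3 and the mean of MAT1A libraries 1 and 2 (y axis) against the GC content of the gene's annotated transcripts in percent (x axis), 1 point per member. Points fall from left to right over the 78 genes (r = -0.553). Whether they do so within each subunit was not tested.

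Few other genes of mitochondrial translation passed the test. In each list, from ribosome proteins with other symbols to transcription and DNA maintenance, the share called higher was above the 4.01% of all genes. These shares rest on few calls. Of 5 mitochondrial ribosome proteins with other symbols (DAP3, PTCD3, AURKAIP1, CHCHD1 and GADD45GIP1), 1 rose and 0 fell, with a median log2 change of 0.073. The riser was AURKAIP1, a small subunit protein, from 153 ± 3.01 to 168 ± 10.5 (SD, n = 3; log2 change 0.13, limma adjusted p = 0.0472). Of 30 genes for assembly and rRNA modification, 2 rose and 0 fell, with 23 above 0 and a median of 0.046 (4 higher with the replicate block, which added MALSU1 and TRUB2). They were C1QBP, a matrix protein needed for mitochondrial translation (0.12, adjusted p = 0.0417), and RPUSD3, a pseudouridine synthase family member (0.11, adjusted p = 0.0331). The calls of AURKAIP1 and RPUSD3 were lost without any library but MAT1A library 3 (limma adjusted p up to 0.172 and 0.109), and that of C1QBP without control library 1 or 2 or MAT1A library 1 or 2 (up to 0.166). Of 16 translation factor genes, 1 rose and 0 fell, with 12 above 0 and a median of 0.064 (4 higher with the replicate block, which added the elongation factors TUFM and GFM1 and the mRNA-binding LRPPRC). The riser without the block was MTIF2, the initiation factor that brings the first tRNA to the ribosome, at 63.8, 64.1 and 62.7 in control and 73.7, 69.9 and 76.5 in MAT1A libraries. Its groups were well apart (log2 change 0.20 ± 0.04, SE; limma adjusted p = 0.00388), and it was called in every fit that left out a library.

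Of 22 genes for charging mitochondrial tRNAs, 3 rose and 0 fell, with a median log2 change of 0.082. KARS, whose products charge lysine tRNAs in both the cytosol and mitochondria, went from 228 ± 5.14 to 254 ± 6.21 (SD, n = 3; log2 change 0.15, limma adjusted p = 0.00456). IARS2 and TARS2, the mitochondrial isoleucyl and threonyl enzymes, had log2 changes of 0.13 and 0.16 (adjusted p = 0.0155 and 0.0352). Of 18 genes for mitochondrial transcription and DNA maintenance, 3 rose and 0 fell, with a median of 0.045: SSBP1, the single-strand DNA binding protein (0.13, adjusted p = 0.0235), POLRMT, the mitochondrial RNA polymerase (0.13, adjusted p = 0.0427), and ELAC2, which trims tRNA ends (0.11, adjusted p = 0.0483). KARS was called in every fit that left out a library. IARS2 lost its call without control library 3 (limma adjusted p = 0.113), SSBP1 without control library 1 or 3 (up to 0.106), ELAC2 without those or MAT1A library 1 or 2 (up to 0.216), and TARS2 and POLRMT without any library but MAT1A library 3 (up to 0.148 and 0.157). The ELAC2 call was also lost with upper-quartile scaling (limma adjusted p = 0.0541) and once the trend on length and GC was taken out (0.0549).

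Of the 9 regulators of mitochondrial biogenesis 8 were tested, of which 2 rose and 1 fell, and their median log2 change was -0.060. ESRRA, a nuclear receptor that acts with the PGC-1 coactivators, rose from 130.1 ± 0.416 to 144 ± 5.82 (SD, n = 3; log2 change 0.14, limma adjusted p = 0.0154), and PPARGC1B, one of those coactivators, from 20.4 ± 1.70 to 24.6 ± 2.79 (0.25, adjusted p = 0.0432). GABPB1, the partner of the ETS factor GABPA, fell from 48.3 ± 1.79 to 41.4 ± 1.33 (-0.22, adjusted p = 0.00547) and was called in every fit that left out a library. The ESRRA call was lost without any 1 control library or MAT1A library 1 (limma adjusted p up to 0.0619), and that of PPARGC1B without control library 2 or 3 or MAT1A library 1 or 3 (up to 0.163). NRF1 (-0.0078), GABPA (-0.060), YY1 (-0.060), PPRC1 (-0.078) and MYC (-0.098) were not called, and PPARGC1A was too low to test. MYC and, from the transcription list, TFAM (-0.11), which packages mitochondrial DNA and starts its transcription, were called lower with the replicate block (limma adjusted p = 0.0156 and 0.0271, against 0.0674 and 0.0658 without it).

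The mitochondrial ribosome was not alone in its small upward shift. Under the same fit 82 cytosolic ribosomal protein genes had a median of 0.076, all above 0. Of these 7 were called higher (8.54%, against 4.01% of all genes), led by RPL7 (0.16), RPL39 (0.26) and RPL7A (0.12). With the replicate block 50 of the 82 were called higher (61.0%, against 7.57% of all genes). The 35 nuclear-encoded complex I genes, for subunits of the enzyme that the mitochondrial ribosome helps to build, had a median of 0.066 with 31 above 0. Of these NDUFS5 rose (0.14, limma adjusted p = 0.0374), and NDUFC2 (-0.26, adjusted p = 0.0145) and NDUFA5 (-0.14, adjusted p = 0.0443) fell. This is 2.86% called higher, against 4.01% of all genes, and 2 called lower, against 7.40% of all genes. With the replicate block 9 of the 35 were called higher (25.7%, against 7.57%) and 2 lower (against 10.4% of all genes). Whether the mitochondrial ribosomal protein genes differ from either set was not tested.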

How the data were processed

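Total RNA of 6 libraries was sequenced with 36-cycle reads per the labels' protocols. The authors deposited 13271 genes in 1 table as a signal, that is reads on a CPM-like scale; column sums ran from 997732 to 1015443. Per the submitters' processing notes, STAR 2.6.0c, featureCounts, edgeR and the build hg38 were used; their annotation and settings: not given in the sources used here. All values were whole multiples of 1 step per column (within 0.01), from which depth was computed; count models were not used. The fit was limma 3.58.1 (R 4.3.3) with an intensity trend on log2(value + 1) for 12866 genes that reached 1 in 3 or more libraries, with Benjamini-Hochberg adjustment over all of them and a threshold of 0.05; the code was tested on simulated data. Fold changes of low genes are understated. Groups and replicate numbers came from the titles. Libraries with the same number deviated together (correlations 0.246, 0.178 and 0.191), each over 0.1. The replicate block therefore took the numbers as pairs, on the evidence of the data alone. The main fit, which gave all p-values not marked otherwise, did not use the pairs. Positions, lengths and GC content are from GENCODE 29 (GRCh38; 13211 symbols matched). Alternatives were 2 other scalings, the filter, the pseudocount, the threshold, the replicate block, removal of each library's length and GC trend, and leaving out each library. Members and lists were chosen with earlier results of these data known. Named were called members, the highest and lowest change of each subunit, the 3 highest and 3 lowest levels per length, MRPS18A to MRPS18C, MRPS30, MRPS36, and up to 3 called genes per other list and direction; other genes were chosen after their values were seen.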

Additional observations from a re-analysis of the deposited data

How the results depend on the processing

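The members called higher numbered 7 (3 large, 4 small subunit). Both other scalings, no filter and a pseudocount of 0.1 left these 3 counts at the same values. The scalings could change little, because the deposited columns were already balanced. Their factors lay between 0.9994 and 1.0004 (median of ratios) and between 0.9968 and 1.0033 (upper quartile). The adjusted p threshold of 0.01 gave 2 (0 in the small subunit), and the filter of at least 5 gave 5 in the large subunit. The replicate block gave 15 (10 large), removal of the length and GC trend 15 (9 large), and both together 22 higher (12 large, 10 small) and 1 lower (MRPS24). The replicate block kept the 7 calls, and it changed no call of another described gene beyond those given beside the results. Leaving out 1 library at a time gave 1 to 11 in all, 1 to 7 in the large and 0 to 4 in the small subunit, with 0 called lower; the median log2 change ran from 0.0545 to 0.0914 in the large and from 0.0779 to 0.108 in the small subunit. All alternatives were run for 37 single genes, except that MRPL38 and MRPL53 did not pass the filter of at least 5. Other genes named (neighbours, uncalled regulators, cytosolic ribosomal protein and complex I genes) had the replicate block only. Among these 37 no called gene changed sign. Of those not called, MRPS18B (0.002) turned to -1.57e-05 with upper-quartile scaling, to -0.0191 once the trend on length and GC was taken out, blocked or not, to -0.000895 without control 2 and to -0.0302 without MAT1A 2 (0.0242 without MAT1A 1); MRPL42 (-0.058) turned to 0.00458 without that trend, blocked or not; and MRPL53 (0.028) turned to -0.0754 without control 3 and to -0.0296 without MAT1A 2 (0.104 without control 2). The subunit medians per kilobase, 23.3 and 14.5, were 54.5 and 40.0 with the median transcript length. The cause of these differences was not tested. The planned count-model tests (edgeR and DESeq2 on reads recovered from the values) were not run. Depth limits the low members most: MRPL53 and MRPL38, the lowest in reads, had the widest standard errors (0.11 and 0.10 on the log2 scale).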
